A study of Callithrix jacchus with 39 samples.

Results

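Enhancer-like regions found in 3 to 5 of 8 organs of the common marmoset numbered 3090 of the 65161 acetylated regions found over all of them (4.74% of the catalogue). They were chosen from the deposited peak positions. In each tissue the H3K27ac peaks that overlapped a peak of the other replicate by at least 1 bp were kept, and kept peaks of all tissues were merged into 1 catalogue. A region counted for a tissue where it held that tissue's kept peaks. Members are the regions counted in 3, 4 or 5 tissues that met no H3K4me3 peak of any of the 15 libraries of that mark. There were 1872 members in 3 tissues, 820 in 4 and 398 in 5.

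Enhancers are stretches of DNA that bind transcription factors and raise transcription of genes that can lie far away. Nucleosomes beside active enhancers carry acetylation of histone H3 at lysine 27 (H3K27ac), which active promoters carry too. Trimethylation of lysine 4 (H3K4me3) is concentrated at promoters, so acetylation without it is often used to pick out candidate enhancers. Enhancer use is known to be more tissue-specific than promoter use, and regions used by a few organs often go with cell lineages or programmes that those organs share. The name enhancer-like refers here to the rule on the 2 marks alone, since no activity was measured.

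The study carried out chromatin immunoprecipitation with sequencing (ChIP-seq) on 8 organs of marmosets, a small New World monkey. The digestive organs were stomach, colon, liver and pancreas, and the others were kidney, spleen, heart and skeletal muscle. Each tissue had 2 numbered replicates for H3K27ac and 2 for H3K4me3, except that heart had 1 H3K4me3 library (replicate 2), which gave 31 peak lists. The labels give tissue, antibody and number, and neither age, treatment nor animal, so p-values below measure the spread between these tissues and not between individuals. H3K27ac lists held between 24590 and 51554 peaks and H3K4me3 lists between 16386 and 24424. Heart had the shortest H3K27ac lists (26689 and 24590 peaks) and liver the longest (46317 and 51554). Read depth is unknown, so a missing peak means only that none was called. Each tissue was profiled in bulk, so acetylation in the main cells of several organs and acetylation in a cell type found in all of them cannot be told apart. The tissue names were not checked against marker genes, because no peak was assigned to a gene.

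Because H3K27ac and H3K4me3 peak positions chose the members, the counts, combinations, lengths and peak strengths that follow are descriptions without a test. Regions free of H3K4me3 became scarcer the more tissues a region was found in. They made up 84.9% of catalogue regions in 1 tissue, 68.3% in 2, 51.5% in 3, 36.8% in 4 and 22.8% in 5. Beyond the limit of 5, the share was 12.9% in 6 tissues, 5.66% in 7 and 0.685% in 8, where 51 of 7442 regions lacked the mark. Another 4518 regions in 3 to 5 tissues were left out because they met H3K4me3, so members were 40.6% of the 7608 regions with that tissue number. Of those left out, 571 (12.6%) met H3K4me3 in 1 library alone and 1075 (23.8%) in all 15. Just inside the rule, 108 members (3.50%) lay within 0.5 kb of an H3K4me3 peak without touching it, and 213 (6.89%) lay within 1 kb. Members covered 5.84 Mb, with a median length of 1697.5 bp and a range of 481 to 7671 bp. The median was 1565 bp in 3 tissues, 1886 bp in 4 and 1992.5 bp in 5, against 1221.5 bp in 2-tissue and 762 bp in 1-tissue enhancer-like regions. Merging joins peaks of every tissue, so a region of more tissues had more peaks that could lengthen it.

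Liver, pancreas, colon and stomach supplied most of the tissue calls. Liver was counted in 2044 members (66.1%), beside 33.3% of all 41524 enhancer-like regions. Pancreas was counted in 1800 members (58.3%, beside 15.2% of all enhancer-like regions), and stomach in 1543 (49.9%, beside 12.1%). Colon was also counted in 1543 members (49.9%, beside 22.9%). Kidney was counted in 1269 members (41.1%, beside 11.7%), and spleen, an immune organ that filters blood, in 1063 (34.4%, beside 15.5%). The 2 striated muscles were counted least often, skeletal muscle in 939 members (30.4%, beside 21.4%) and heart in 685 (22.2%, beside 5.15%). A member holds 3 to 5 tissues by rule and most enhancer-like regions hold 1, so every tissue's share had to be higher in members on average. The order was not the same with shorter lists, which also left out weaker peaks. With lists limited to their 20000 strongest peaks, which gave 816 members, pancreas was counted in 54.2%, stomach in 52.8%, liver in 47.5%, kidney in 46.2% and colon in 45.0%. Heart was then counted in 33.3% of members and skeletal muscle in 29.2%.

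Read from the side of each tissue, heart had the largest part of its enhancer-like regions among the members. Members were 32.0% of the enhancer-like regions of heart, 30.6% of those of stomach, 28.5% of those of pancreas and 26.0% of those of kidney. The share was 16.5% in spleen, 16.2% in colon, 14.8% in liver and 10.6% in skeletal muscle. Regions of 1 tissue were 73.4% of the enhancer-like regions in skeletal muscle, 65.0% in liver, 60.6% in spleen, 60.5% in colon, 45.5% in kidney, 42.2% in pancreas, 33.6% in stomach and 32.8% in heart. Heart and stomach were also among the tissues with the shortest H3K27ac lists, and the part of list length in these shares was not tested.

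Every tissue was counted in a larger share of members as the number of tissues grew, which the rule forces on average. Kidney was counted in 33.1% of 3-tissue, 45.6% of 4-tissue and 69.1% of 5-tissue members, although its counts fell (620, 374 and 275). Pancreas was counted in 47.8%, 70.2% and 82.7% of members in 3, 4 and 5 tissues, and liver in 60.7%, 70.2% and 83.2%. Heart was counted in 16.8% of 3-tissue, 27.4% of 4-tissue and 36.7% of 5-tissue members, fewer than any other tissue in each class with the full lists. Colon varied least, with 45.0% of 3-tissue, 55.7% of 4-tissue and 61.3% of 5-tissue members. These shares depend on having 2 libraries per tissue. With 1 H3K27ac library left out, the other stands without the demand of overlap, and heart was counted in 37.2% of members without its replicate 1 and 39.7% without its replicate 2. Kidney was counted in 62.1% without its replicate 1 and spleen in 52.5% without its replicate 2.

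Nearly every possible combination of tissues occurred, but a few were far more frequent than the others. All 56 combinations of 3 tissues were seen, 67 of 70 of 4 and 52 of 56 of 5. The median combination held 19 members in 3 tissues, 6.5 in 4 and 4 in 5. It took the 9 most frequent combinations of 3 tissues, the 10 most frequent of 4 and the 8 most frequent of 5 to reach 50% of the members. At the low end, 6 combinations of 4 tissues and 7 of 5 had a single member.

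**Figure D1:**
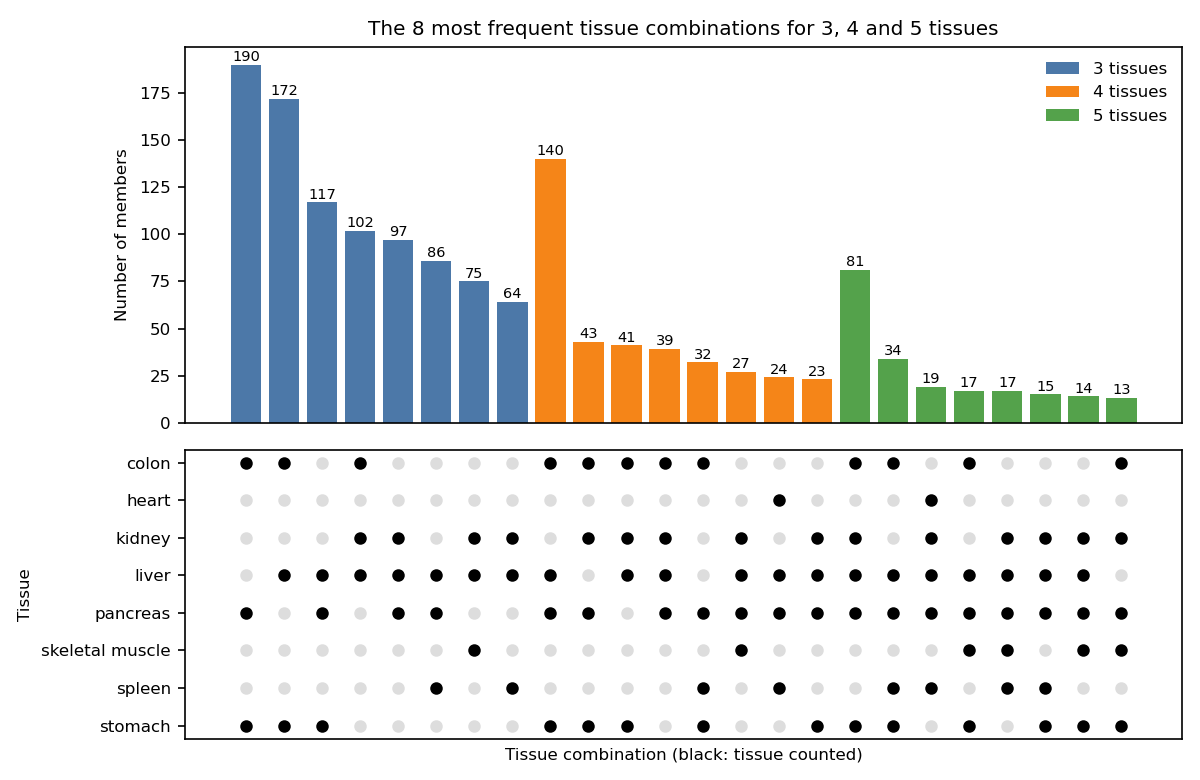
Bars give the number of members (vertical axis) in each of the 8 most frequent tissue combinations of 3, 4 and 5 tissues, and black dots below mark the tissues of each combination. The leading bar stands at 190 members for 3 tissues, 140 for 4 and 81 for 5, and stomach is part of all 3 leading combinations.

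Digestive organs led each class. Colon, pancreas and stomach formed the most frequent 3-tissue combination with 190 members (10.1% of 1872), followed by colon, liver and stomach with 172 (9.19%). Liver, pancreas and stomach came next with 117 members, then colon, kidney and liver with 102 and kidney, liver and pancreas with 97. The rarest 3-tissue combination was colon, heart and kidney with 3 members. Among 4-tissue members, colon, liver, pancreas and stomach led with 140 (17.1% of 820), and the next combination, in which kidney took the place of liver, had 43. Among 5-tissue members, the same 4 organs plus kidney led with 81 (20.4% of 398), ahead of the same 4 plus spleen with 34. These leading combinations were not particular to members. Over all catalogue regions they held 350 of 3633 in 3 tissues, 333 of 2226 in 4 and 301 of 1749 in 5. The lead in 4 and in 5 tissues was the same with each of the 31 libraries left out in turn, and the lead in 3 tissues in 26 of 31. Colon, liver and stomach led instead without either liver H3K27ac library (242 against 151 and 211 against 178 members) or either stomach H3K27ac library (244 against 239 and 219 against 217). Without kidney H3K27ac replicate 2, kidney, liver and pancreas led with 176 against 165 members, and the leading 4-tissue combination stood at 10.95% of 4-tissue members.

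Colon, liver, pancreas and stomach, which arise from the embryonic gut tube, made up all the tissues of 541 of the 3-tissue members (28.9%) and 140 of the 4-tissue members (17.1%). Such regions were also frequent with H3K4me3 included. Of all 3633 catalogue regions in 3 tissues, the 4 combinations of these organs held 350, 329, 187 and 159. None of these 4 organs was counted in 71 of the 3-tissue members (3.79%) and 9 of the 4-tissue members (1.098%). A 5-tissue member must hold at least 1 of the 4 and at least 1 other tissue, since there are 4 of each. In 1750 members (56.6%) neither heart nor skeletal muscle was counted. Heart and skeletal muscle, both striated muscle, were counted together in 284 members (9.19%).

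The pairs of tissues within members differed from the pairs that made up 2-tissue regions. Liver with pancreas was the most frequent pair, in 1083 members, which were 53.0% of the members of liver and 60.2% of those of pancreas. Colon with stomach was in 1038 members, 67.3% of the members of each, and in 949 of the 5610 2-tissue regions, where it ranked first of 28 pairs. Pancreas with stomach ranked the third in members with 978 and the eighth in 2-tissue regions with 234. Liver with stomach was in 886 members and 129 2-tissue regions, and kidney with stomach in 438 members and 36 2-tissue regions. In the other direction, heart with skeletal muscle ranked 12 of 28 in 2-tissue regions with 151 and 23 of 28 in members with 284. Ranks by count follow how often each tissue was counted. As a share of members with either tissue, colon with stomach ranked first (0.507) and liver with pancreas ranked 3 (0.392). By that share heart with skeletal muscle ranked 14 of 28 (0.212). The rarest pair was colon with heart, in 137 members, 8.88% of the members of colon and 20% of those of heart. These counts share regions between pairs, and the differences in rank were not tested.

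**Figure D2:**
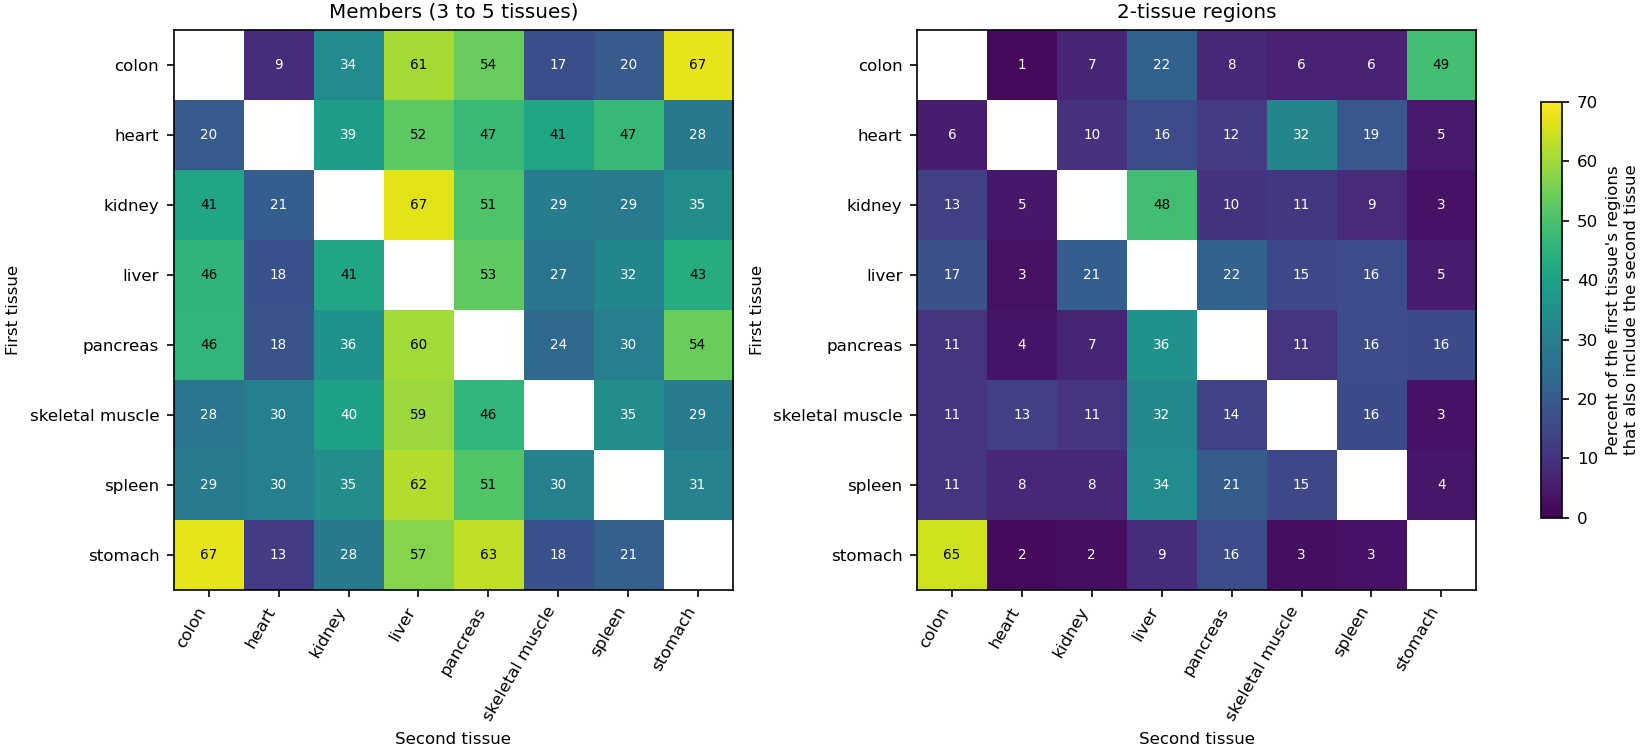
Each cell gives the percent of the regions of the first tissue (rows) that also include the second tissue (columns), in members on the left and in 2-tissue enhancer-like regions on the right. Colon with stomach is bright in both panels (67.3% of the members of each). Every cell is higher on the left, where a region has 2 to 4 partner tissues, than on the right, where it has 1.

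The company that a pair kept differed from pair to pair. Of the 488 3-tissue members with colon and stomach, 190 (38.9%) had pancreas and 172 (35.2%) had liver as the remaining tissue, and 14 had heart. Of the 383 with kidney and liver, 102 added colon, 97 pancreas, 75 skeletal muscle and 64 spleen, but 17 stomach. Of the 439 with liver and pancreas, 117 added stomach, 97 kidney and 86 spleen. The 105 with heart and skeletal muscle were spread over the remaining tissues, with 25 each for liver and spleen and 19 each for kidney and pancreas. Heart joined spleen more often than it joined skeletal muscle, in 321 members (46.9% of those of heart and 30.2% of those of spleen) against 284 (41.5% of those of heart and 30.2% of those of skeletal muscle).

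Combinations also differed in how often they lacked H3K4me3. Among combinations with at least 50 catalogue regions, kidney, liver and skeletal muscle had the highest share free of the mark, 64.1% (75 of 117). Kidney, liver and spleen followed with 63.4%, liver, skeletal muscle and spleen with 63.2%, and liver, pancreas and stomach with 62.6%. The leading combination of colon, pancreas and stomach stood at 54.3% (190 of 350). The lowest shares belonged to 5-tissue combinations, 11.3% (9 of 80) for colon, heart, liver, pancreas and stomach and 17.9% (17 of 95) for colon, liver, pancreas, skeletal muscle and stomach. By single tissue the share was narrow, from 33.2% of regions with heart to 40.9% of regions with spleen.

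Many members also held peaks of tissues that were not counted. Whether such peaks were acetylation left out by the rule or calls that did not recur was not tested. Peaks of 6 to 15 of the 16 H3K27ac libraries fell in a member, with a median of 8. In 888 members (28.7%) no tissue beyond the counted ones had a peak, in 1034 (33.5%) 1 further tissue had a peak in a single library or peaks that did not meet, and in 755 (24.4%) 2 did. At the far end, 66 members (2.14%) had a peak in at least 1 library of all 8 tissues. Pancreas was the tissue most often seen this way, with a peak in 45.9% of the members it was not counted in, followed by liver with 39.4%, kidney with 38.8% and stomach with 34.5%. Skeletal muscle was seen least, in 15.6%, and colon in 18.2%. Just outside the rule, 3206 of the 5610 2-tissue regions (57.1%) had such a peak of a further tissue.

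In most members the acetylated stretches of all counted tissues met. At least 1 base was covered by kept peaks of every counted tissue in 2815 members (91.1%). The share was 93.2% in 3 tissues, 89.6% in 4 and 84.2% in 5. Limiting the members to these 2815 left the leading combination of each tissue number in place and changed none of the calls below.

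The strongest examples show these patterns at single regions. They are the members of the 5 most frequent combinations of each tissue number whose weakest counted library ranked highest by its kept peaks, and they were chosen on these values. Fold enrichment is the ratio of ChIP signal to background given by the authors' peak caller, and a percentile places the strongest peak in the region among all peaks of its own list. Coordinates are those of the calJac3 build named in the peak lists.

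The colon, pancreas and stomach example at chr1:209501155-209504178 (3024 bp) had fold enrichments of 11.1 and 9.51 in colon, 10.7 and 8.15 in pancreas and 9.44 and 8.42 in stomach. The strongest peaks of its 6 libraries lay between percentiles 76.6 and 81.7, so the 3 organs were close to equal in rank, and no other library had a peak there. The colon, liver and stomach example at chr1:91225837-91228576 was less even in rank, and had fold enrichments of 18.7 and 15.5 in colon, 20.1 and 18.2 in liver and 7.62 and 10.5 in stomach. Stomach replicate 1 was its lowest at percentile 70.03, against 97.3 for liver replicate 1, and no other tissue had a peak. The liver, pancreas and stomach example at chr6:127491175-127493548 had 14.8 and 11.3 in liver, 11.8 and 8.90 in pancreas and 10.1 and 7.10 in stomach. It stood far from any H3K4me3 peak, the nearest lying 213.9 kb away.

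The kidney, liver and pancreas example at chr19:43526863-43527909, at 1047 bp the shortest of the 15, had 7.52 and 8.01 in kidney, 9.24 and 10.1 in liver and 9.62 and 11.1 in pancreas. The colon, kidney and liver example, on an unplaced scaffold at positions 11596 to 15992, had 20.7 and 23.6 in liver, 12.8 and 9.9997 in colon and 8.27 and 7.97 in kidney. Both stomach libraries also had a peak inside it, at 5.06 and 4.47, but the 2 peaks did not overlap and stomach was not counted. Without the demand of overlap between replicates, stomach would have been counted there.

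Among 4-tissue members, the colon, liver, pancreas and stomach example at chr10:122139193-122141598 had peaks in its 8 libraries alone. Its fold enrichments were 11.2 and 8.999 in colon, 8.76 and 10.3 in liver, 10.9 and 8.96 in pancreas and 7.53 and 6.90 in stomach. The colon, kidney, pancreas and stomach example at chr19:23761155-23764311 was led by kidney replicate 1 with 11.3 (percentile 91.6). It also held weak peaks of heart replicate 2 (5.36, percentile 35.6) and liver replicate 2 (4.52, percentile 26.1), 1 library each. The colon, kidney, liver and pancreas example at chr4:44614296-44616743 ranked highest in colon, at percentiles 93.6 and 82.3, against 58.7 and 60.3 in liver, and lay 0.684 kb from an H3K4me3 peak.

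The leading 5-tissue combination had its clearest example at chr6:121888622-121894738, 6117 bp long. Fold enrichments there were 11.5 and 8.16 in colon, 9.36 and 8.95 in kidney, 10.6 and 10.7 in liver, 9.71 and 8.94 in pancreas and 9.88 and 8.71 in stomach. The strongest peak of each of the 10 libraries ranked at percentile 70.2 or above, and heart, skeletal muscle and spleen had none. The heart, kidney, liver, pancreas and spleen example at chr4:23453391-23455706 ranked lower, with its highest percentiles in spleen replicate 2 (80.1, fold enrichment 8.14) and pancreas replicate 1 (75.2, fold enrichment 9.53). Heart had 7.18 and 5.82 there, and skeletal muscle had a peak in replicate 2 alone (6.72). The kidney, liver, pancreas, skeletal muscle and spleen example at chr7:61437617-61439939 was led by spleen replicate 1 (8.34, percentile 83.8), while spleen replicate 2 had 4.51 (percentile 25.3) and kidney replicate 2 had 4.29 (percentile 25.9).

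**Figure D3:**
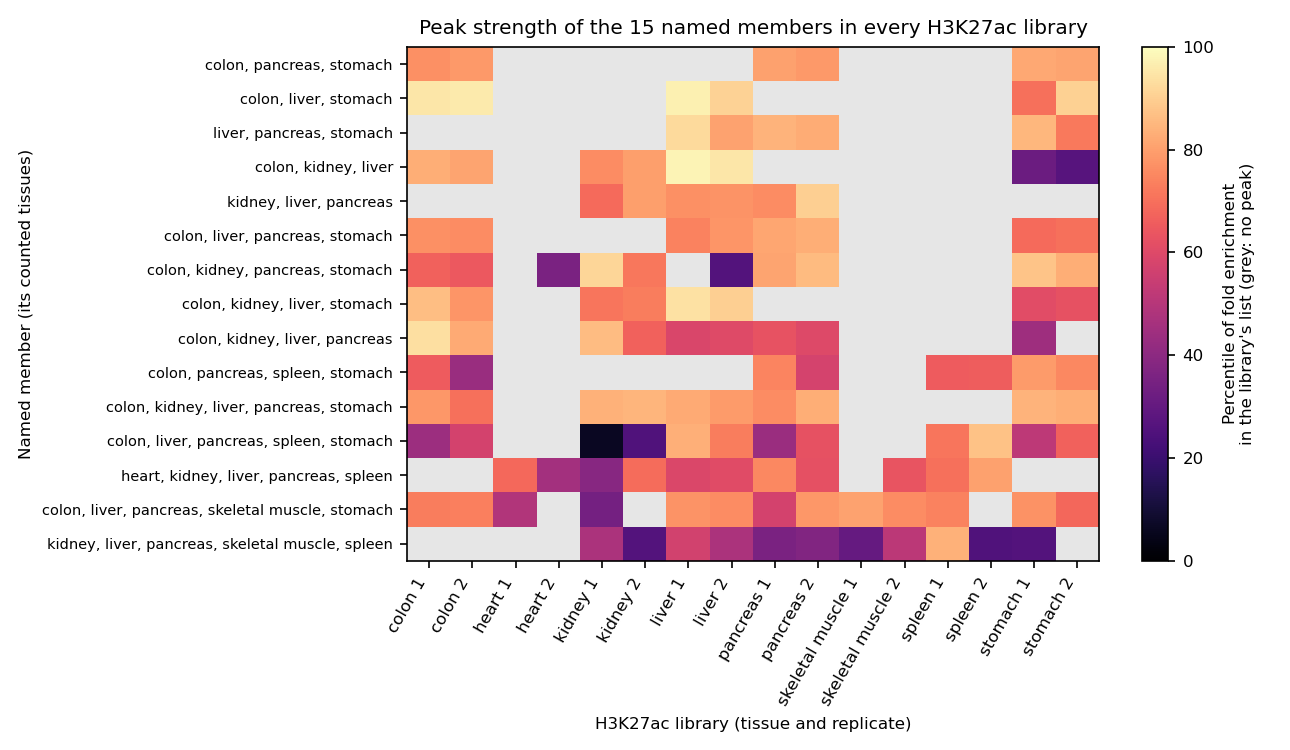
Colour gives the percentile of the strongest peak of each of the 15 named members (rows, named by their counted tissues) within the peak list of each H3K27ac library (columns, tissue and replicate), and grey marks no peak. The 6 values of the top row lie between percentiles 76.6 and 81.7, while the lowest row ranges from 25.3 to 83.8 over its 10 counted libraries.

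Over all members, peak strength within a list was moderate and in most tissues a little above that of less shared enhancer-like regions. The median percentile of members was higher than that of 2-tissue and of 1-tissue regions in 13 of the 16 libraries. It stood at 58.9 in spleen replicate 1, against 49.2 in 2-tissue and 39.5 in 1-tissue regions. In colon replicate 2 it was 47.8, against 40.9 and 35.1. Kidney replicate 1 was an exception, with 46.3 in members, 49.3 in 2-tissue and 48.0 in 1-tissue regions. In skeletal muscle members were slightly below 2-tissue regions, at 44.53 against 44.68 in replicate 1 and 40.59 against 40.62 in replicate 2. Members are also longer, so they held more peaks from which the strongest was taken.

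The tissue that ranked highest within a member often did so in both replicates. The gap between the strongest and the weakest counted tissue had a median of 39.6 percentile points in replicate 1 and 36.7 in replicate 2. In 3-tissue members it was 35.4 and 33.7 points, and in 5-tissue members 49.5 and 47.3. No gap for unrelated ranks was computed, so these gaps alone do not show that tissues differed. The same tissue was the strongest in both replicates in 1637 members (53.0%). This was 56.0% of 3-tissue members, where unrelated replicates would give 33.3% if each tissue were equally likely, 50.7% of 4-tissue members (25.0%) and 43.2% of 5-tissue members (20%). Tissues were not equally likely, so those values are only a guide. In replicate 1 spleen was strongest in 502 of its 1063 members and stomach in 200 of its 1543. A tissue that was strongest in replicate 1 was strongest in replicate 2 in 49.8 ± 10.8% of cases, against 17.9 ± 5.32% where it was not strongest in replicate 1 (SD, n = 8 tissues). The difference was 31.9 ± 6.10 percentage points and above 0 in 8 of 8 tissues (exact permutation, p = 0.00781, adjusted p = 0.00911 by the Benjamini-Hochberg method over 7 tests). This test and those below flip the signs of the per-tissue differences in every possible way, an exact permutation, and are two-sided. No p below 0.00781 can be reached with 8 tissues, and tissues share members, so they are not fully independent. Liver had the largest difference, 61.8% against 23.9%, and heart the smallest, 31.01% against 8.81%. As a description across members, Spearman's rho between the percentiles of the 2 replicates ran from 0.504 in heart (685 members) to 0.713 in liver (2044 members).

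Summits, the positions of highest signal, lay closer together between replicates of 1 tissue than between tissues of the same member. The rule does not use summit position, but it kept only peaks that overlapped the other replicate and asked no such overlap between tissues. This can favour closer summits between replicates, and its part in the difference was not tested. Over peaks that overlapped directly, the median spacing was 125.9 ± 13.9 bp between replicates and 154 ± 12.8 bp to other tissues (SD, n = 8 tissues). The difference was -28.1 ± 13.8 bp and below 0 in 8 of 8 tissues (adjusted p = 0.00911, raw p = 0.00781, exact permutation). Skeletal muscle had the widest difference, 131 bp between replicates against 180 bp to other tissues, and liver had 108 against 152 bp. Pancreas had the narrowest, 147 against 153 bp. Both spacings are short beside the median member length of 1697.5 bp.

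Members lay nearer to H3K4me3 than enhancer-like regions found in fewer tissues. All classes were free of H3K4me3 overlap by the same rule, and distance beyond that was not used to choose them. For each tissue, the median distance from a member counted there to the nearest H3K4me3 peak of that tissue was compared with the median for regions of that tissue alone. It averaged 24.1 ± 4.44 kb in members and 34.3 ± 8.83 kb in 1-tissue regions (SD, n = 8 tissues). The log2 ratio was -0.49 ± 0.14, or 0.713-fold, and below 0 in 8 of 8 tissues (adjusted p = 0.00911, raw p = 0.00781, exact permutation). Pancreas differed most, with 27.6 kb in members and 45.1 kb in 1-tissue regions, and liver least, with 19.0 kb and 23.7 kb. Heart members lay at a median of 32.4 kb and heart regions of 1 tissue at 48.2 kb. Members are longer, which shortens the distance between edges, and between centres the log2 ratio was -0.44 (adjusted p = 0.00781, exact permutation test).

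Against 2-tissue regions the difference was smaller. The average was 24.1 ± 4.44 kb in members and 29.5 ± 7.46 kb in 2-tissue regions (SD, n = 8 tissues), a log2 ratio of -0.27 ± 0.13 or 0.828-fold. It was below 0 in 8 of 8 tissues (adjusted p = 0.00911, raw p = 0.00781, exact permutation). Heart had 32.4 kb in members and 43.6 kb in 2-tissue regions, whereas colon was almost level at 21.7 kb and 22.3 kb. With 3-tissue members alone the log2 ratio was -0.12 and the call was lost (exact permutation test, adjusted p = 0.0625). With the 20000 strongest peaks of each list both contrasts were wider, at -0.98 against 1-tissue and -0.59 against 2-tissue regions (adjusted p = 0.0137 each, exact permutation test).

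**Figure D4:**
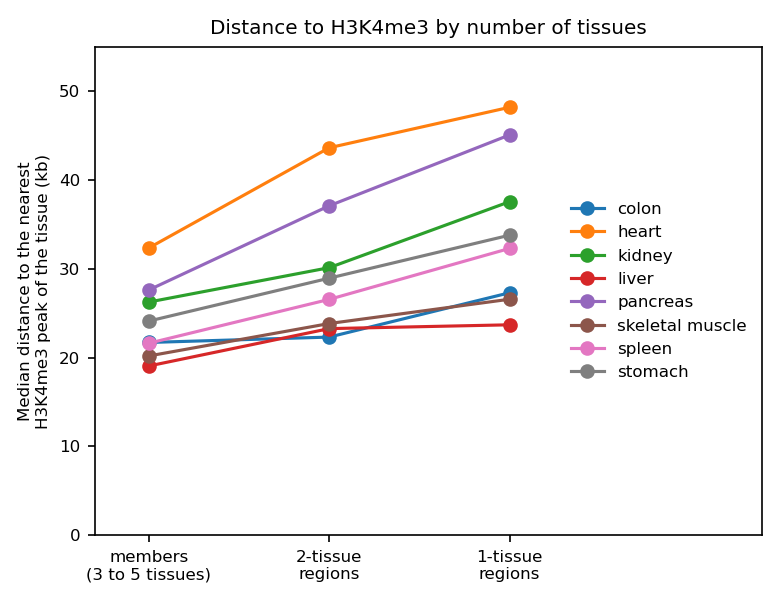
Points give the median distance in kb from enhancer-like regions of a tissue to the nearest H3K4me3 peak of that tissue (vertical axis), for members, 2-tissue regions and 1-tissue regions, with 1 line per tissue. All 8 lines are lowest at members, from 19.0 kb in liver to 32.4 kb in heart (1 H3K4me3 library), and the step to 2-tissue regions is nearly flat in colon.

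The nearest H3K4me3 site was then used to ask whether acetylation of a member went with marks at a promoter-like site nearby. Sites were H3K4me3 peaks found in both replicates of a tissue (in heart, its 1 library), merged over tissues into 23034 sites. Within 100 kb a site was found for 2717 members (87.9%), against 84.8% of 2-tissue and 80.1% of 1-tissue regions, and 2191 different sites were nearest to a member. The nearest site was marked by H3K4me3 in all 8 tissues for 1344 of the 2717 members (49.5%), against 48.4% for 2-tissue and 47.5% for 1-tissue regions. It was marked in 1 tissue for 550 members (20.2%), against 22.0% and 22.7%. The nearest site need not be the target of an enhancer.

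H3K27ac was found more often at the nearest site in the tissues where the member was acetylated. The site carried kept H3K27ac peaks of the tissue for 71.0 ± 6.27% of members acetylated in it and 60.6 ± 7.26% of members not acetylated in it (SD, n = 8 tissues). The difference was 10.4 ± 4.25 percentage points and above 0 in 8 of 8 tissues (adjusted p = 0.00911, raw p = 0.00781, exact permutation). Spleen had the largest difference, 68.0% against 51.8%, followed by colon with 77.2% against 62.5%. Kidney had the smallest, 65.9% against 61.8%, and pancreas was next with 74.0% against 68.4%. Not acetylated means here not counted, and such members could still hold an unmatched or single-library peak of the tissue. Over all members not counted in the tissue, this share ran from 15.6% in skeletal muscle to 45.9% in pancreas. Its part in the differences between tissues was not tested. With sites at 10 to 100 kb alone the difference was 6.08 points (adjusted p = 0.0234, exact permutation test), and with lists limited to their 20000 strongest peaks 6.46 points (adjusted p = 0.0328).

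H3K4me3 at the nearest site showed a smaller difference of the same direction. It was present for 72.7 ± 7.11% of members acetylated in the tissue and 66.7 ± 7.23% of members not acetylated in it (SD, n = 8 tissues). The difference was 5.93 ± 3.33 percentage points and above 0 in 8 of 8 tissues (adjusted p = 0.00911, raw p = 0.00781, exact permutation). Spleen again led, with 68.1% against 56.4%, and colon had 78.7% against 70.4%. In pancreas the values were almost the same, 62.6% against 62.1%. With sites at 10 to 100 kb alone the difference was 3.31 points (adjusted p = 0.0391, exact permutation test), and with the 20000 strongest peaks it was 4.35 points and no longer past the threshold (adjusted p = 0.0547).

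**Figure D5:**
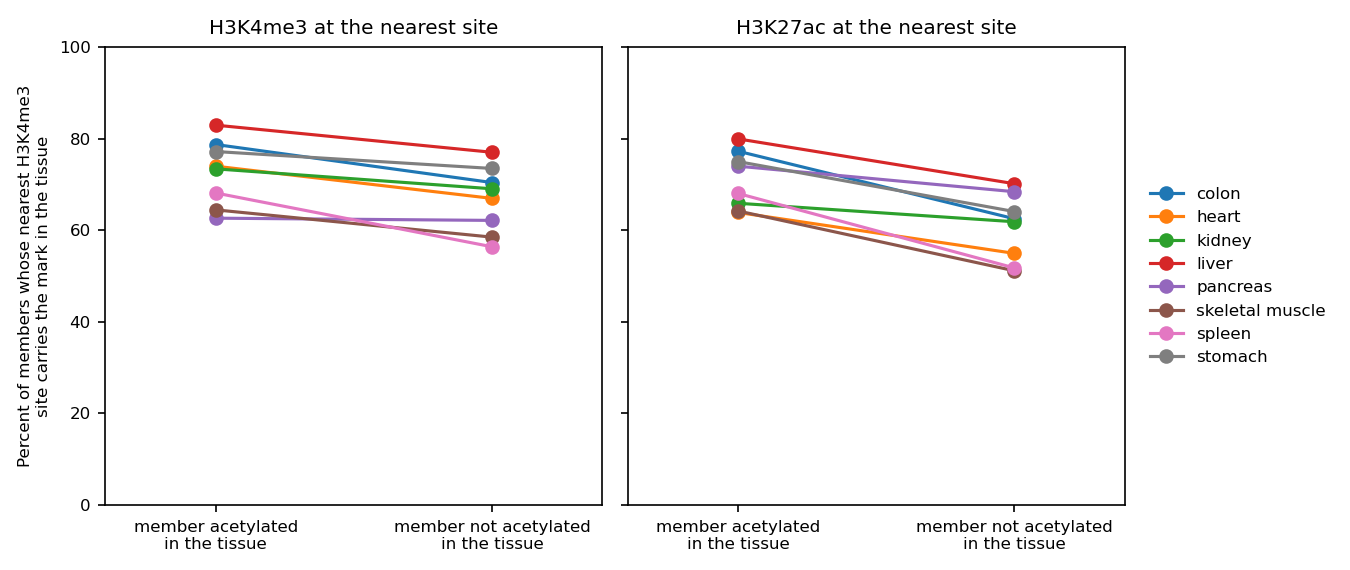
Points give the percent of members whose nearest H3K4me3 site within 100 kb carries H3K4me3 (left) or H3K27ac (right) in a tissue, for members acetylated in that tissue and members not acetylated in it, with 1 line per tissue. All 16 lines slope down, most in spleen and least in pancreas on the left and in kidney on the right. Not acetylated means not counted, so such a member may still hold an unmatched or single-library peak of the tissue.

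The same difference was measured in 1-tissue regions, where regions of the tissue alone were set against regions of any other single tissue. It was 10.4 ± 4.25 percentage points in members and 13.6 ± 5.56 points in 1-tissue regions (SD, n = 8 tissues). The 2 references were unlike. A peak of a further tissue, unmatched or in a single library, fell in 34.0% of 1-tissue regions, while 28.7% of members had none. The part of this in the contrast was not tested. The value of members minus that of 1-tissue regions was -3.19 ± 3.01 points, below 0 in 7 of 8 tissues (adjusted p = 0.0313, raw p = 0.0313, exact permutation). Liver had 9.78 points in members and 15.98 in 1-tissue regions, and colon had 14.7 and 20.7. Heart went the other way, with 8.92 points in members and 6.16 in 1-tissue regions. The call was lost without colon H3K27ac replicate 2 (-2.43 points, adjusted p = 0.0859), pancreas H3K27ac replicate 2 (-2.41, 0.109) or stomach H3K4me3 replicate 1 (-3.06, 0.0547), all by exact permutation. It was also lost with the 20000 strongest peaks (-1.42 points, adjusted p = 0.344, exact permutation) and when members had to lie over 1 kb from H3K4me3 (-2.38, adjusted p = 0.0703).

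Most members had no other member close by, with other catalogue regions left out of the count. The median gap between neighbouring members was 245.5 kb, and 2329 members (75.4%) had no other within 12.5 kb. The other 761 fell into 342 groups, of which 13 held 4 or 5. Neighbours within 12.5 kb had more tissues in common than distant ones. The mean share of tissues in common, of those counted in either, was 0.579 over 419 close pairs and 0.349 over 1980 pairs more than 100 kb apart. The combination was identical in 63 close pairs (15.04%) and 41 distant pairs (2.07%), a description without a test. Close members may be pieces of the same acetylated stretch, which was not tested.

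The densest of the 5 named groups lay on chromosome 20 at chr20:28575902-28584891. All 5 of its members were counted in colon, liver and stomach and in no other tissue, and they covered 7.99 kb of 8.99 kb. Peaks covered 7.16 and 5.53 kb in colon, 4.81 and 5.51 kb in liver and 4.53 and 5.74 kb in stomach, and 0 kb in each of the other 10 H3K27ac libraries. The nearest H3K4me3 peak was 28.9 kb away. It was the only one of the 5 with a single combination, and these groups were chosen for their number of members and covered length.

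On chromosome 5, chr5:60962576-60985862 held 5 members in 5 different combinations, all with liver and skeletal muscle. Peaks covered 7.45 and 8.65 kb in liver and 7.56 and 7.93 kb in skeletal muscle, against 2.69 and 3.04 kb in spleen and 0 kb in colon and stomach. A further group at chr5:99480133-99503107 had kidney in all 5 members, pancreas in 4 and skeletal muscle in 4, and liver in none. The group at chr5:139888609-139909007 had 4 members with colon, liver and pancreas in each and stomach in 2, and its members covered 13.5 kb. By contrast, the 5 members at chr12:51793151-51813443 had 5 combinations and no tissue in all of them, pancreas, skeletal muscle and stomach being counted in 4 each.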

How the data were processed

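ChIP-seq peak lists for H3K27ac (antibody ab4729, 16 libraries) and H3K4me3 (ab8580, 15 libraries) were used, 1 deposited list per library, so peaks were not called on pooled replicates. Per the labels' protocols, a TruSeq DNA kit served for library preparation. MACS2 2.1.1.20160309, Bowtie 1.1.2, bedtools 2.26 and SAMtools 1.3.1 are named in the submitters' processing notes with no role or order. Peak names in the deposited lists carry calJac3, which was taken as the build. The 8 input samples are not analysed here, and the sources used here do not say how they entered peak calling. The deposited columns hold a score, the authors' fold enrichment (a ratio), −log10 p and −log10 q values and the summit offset of each peak. In the tests and settings, fold enrichment was used only to rank peaks within 1 list. For the named regions it is printed as given, and its scale may differ between lists. Depth is unknown, so no interval or detection limit was computed.

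Libraries were grouped by tissue, mark and number from their titles. Overlap meant 1 bp, and touching intervals were merged. Differences were formed within each tissue and tested over 8 tissues with two-sided exact sign-flip permutation tests (256 sign patterns), with Benjamini-Hochberg adjustment over 7 tests and a threshold of 0.05. Jaccard indices of replicates lay between 0.467 and 0.735, so no list repeated another. Named regions were, for each tissue number, the 5 most frequent combinations and in each the member with the highest lowest percentile, and the 5 groups joined within 12.5 kb with the most members. The members, tests and named regions were chosen with earlier results of these data known. Python 3.11.15, numpy 2.4.6, scipy 1.17.1 and matplotlib 3.10.9 were used, and the code was tested on simulated intervals. The alternatives tried are given in the closing section. No genome or gene annotation of calJac3 was used here, so GC content, sequences and genes were not analysed.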

Additional observations from a re-analysis of the deposited data

How the results depend on the processing

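Each tested difference was recomputed with each of the 31 libraries left out and under up to 9 other settings, and none changed sign. Distance to H3K4me3 against 1-tissue regions kept its call throughout (log2 ratio -0.98 to -0.34), as did H3K27ac at the nearest site (6.08 to 11.2 points), summit spacing (-59.4 to -23.4 bp, the widest with peaks that do not overlap directly) and strongest tissue (25.0 to 35.1 points). With the 20000 strongest peaks of each list members numbered 816, H3K4me3 at the nearest site differed by 4.35 points and the member effect differed from the 1-tissue effect by -1.42 points, neither past the threshold. The last of these was -2.38 with no H3K4me3 within 1 kb and ran from -3.97 to -2.41 over left-out libraries, where 3 of 31 ended the call. In 3-tissue members alone the log2 distance ratio against 2-tissue regions was -0.12 and not past the threshold. The cause of these changes was not tested. With libraries left out members numbered 3091 to 3661. With 50% overlap between replicates, colon, liver and stomach led the 3-tissue members (175 of 1742), and with the 20000 strongest peaks colon, kidney, liver and stomach led the 4-tissue members (14 of 201). Pairing by replicate number was looked for with a limit of 0.1. Deviations of same-numbered lists correlated between -0.020 and 0.070 over 28 pairs of tissues, none over that limit. Only kidney with stomach (-0.005) and liver with stomach (-0.020) were below 0. Such correlations cannot tell whether lists of the same number came from 1 animal, which the labels do not give. With the number as a replicate block the log2 distance ratio was -0.53 against 1-tissue and -0.29 against 2-tissue regions, the site differences were 5.71 points for H3K4me3 and 9.80 for H3K27ac, its contrast with 1-tissue regions was -3.62 points and summit spacing -25.5 bp, and no call changed. For the strongest tissue, which already contrasts the numbers, no block could be fitted. The setting with a base shared by all tissues was chosen after seeing the data and changed no call. Depth limits absence, since a tissue without a peak may lack reads.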

Other observations

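Members were spread over all chromosomes, but not in proportion to enhancer-like regions. They were 9.61% of the enhancer-like regions of chromosome 22, 9.58% of those of chromosome 20 and 9.14% of those of chromosome 5, against 7.44% over the genome. The lowest shares were 4.29% on chromosome X (25 of 583), 4.55% on chromosome Y (2 of 44) and 4.796% on chromosome 8 (74 of 1543). Chromosome 5 held the most members, 298, and unplaced or random sequences held 86. These shares are descriptions of regions chosen by peak position and were not tested.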
